A study of Mus musculus with 24 samples.

Results

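Interferon-stimulated genes were followed across 24 mouse liver libraries, as 36 named genes of the 15161 in the counts table. The genes were taken by symbol, whatever their level, and all 36 had a row. The list was chosen with earlier results of these data known, so it is not an unbiased sample of interferon-stimulated genes. Of these, 35 passed the filter on low counts and were tested. Tgtp1, a GTPase of the immunity-related family, did not pass, with 82 reads in all and 0 to 11 reads in a library. The genes fell into 6 roles: 7 type I responsive genes (Ifit1, Ifit2, Ifit3, Oas1a, Oas2, Oasl2, Usp18), 7 gamma-responsive GTPases (Igtp, Irgm1, Irgm2, Gbp2, Gbp3, Gbp6, Gbp7), 3 other GTPases (Iigp1, Tgtp1, Ifi47), 4 nucleic acid sensors, 4 transcription factors and 11 other effectors.

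The livers were those of 4-month-old males of the inbred mouse strain C57BL6/J. In 2 groups of 6 libraries the dietary protein was replaced by free amino acids, called elemental in the labels, with 0.86% methionine in the control diet and 0.17% in the methionine-restricted (MR) diet. In the other 2 groups of 6 the protein source was casein, the main milk protein, again with 0.86% methionine in the control and 0.17% under MR. The labels call the casein of the MR diet oxidized, a treatment that leaves its methionine poorly usable, and do not say this of the casein control, so restriction and oxidation cannot be told apart there. Library names give the protein (E or C), the diet (C or MR) and a number, as in E_MR_3420. The labels do not say that each number is 1 mouse, so p-values here measure the spread between these samples.

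Interferons are cytokines that set cells into an antiviral state. Type I interferons (alpha and beta) bind a receptor of Ifnar1 and Ifnar2, whose kinases activate transcription factors of the STAT family. Stat2 and Irf9 encode parts of the complex that then binds the interferon-stimulated response element of its target genes. Interferon gamma binds Ifngr1 and Ifngr2 and acts through STAT proteins at the gamma-activated site. It also raises IRF1, itself a transcription factor of many of the same genes. Ifit and Oas genes are textbook targets of type I interferon, and the immunity-related and guanylate-binding GTPases are textbook targets of interferon gamma, though many genes answer to both. Hepatocytes, Kupffer cells and liver endothelium can all express such genes.

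Promoters of a few of these genes are shown because the rule contrasts genes of the 2 signalling routes. Each line is the RefSeq window on GRCm38.p6 from 250 bases before a gene's start to 50 bases after it, 5′ to 3′ on the gene's strand. Capitals mark matches to the core of the response element (GAAA, any 2 bases, GAAA, on either strand) or to the gamma-activated site (TTC, any 3 bases, GAA, which reads the same on both strands). Ifit3 stands for the type I responsive genes, Isg15 for the other effectors, Igtp and Irgm2 for the GTPases, and Irf1 for a window with the gamma-activated site alone.
Ifit3 (chr19:34583279-34583578, plus strand): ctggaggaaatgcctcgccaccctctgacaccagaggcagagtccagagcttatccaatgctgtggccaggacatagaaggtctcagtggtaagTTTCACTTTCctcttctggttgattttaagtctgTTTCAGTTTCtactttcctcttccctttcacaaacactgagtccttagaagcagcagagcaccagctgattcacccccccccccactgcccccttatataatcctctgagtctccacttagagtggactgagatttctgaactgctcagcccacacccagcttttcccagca
Isg15 (chr4:156200769-156201068, minus strand): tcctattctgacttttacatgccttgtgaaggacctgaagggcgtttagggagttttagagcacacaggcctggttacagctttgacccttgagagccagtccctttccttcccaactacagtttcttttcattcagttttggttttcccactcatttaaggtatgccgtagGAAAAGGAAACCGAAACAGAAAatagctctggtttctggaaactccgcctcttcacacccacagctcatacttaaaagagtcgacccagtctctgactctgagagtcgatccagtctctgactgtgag
Igtp (chr11:58199306-58199605, plus strand): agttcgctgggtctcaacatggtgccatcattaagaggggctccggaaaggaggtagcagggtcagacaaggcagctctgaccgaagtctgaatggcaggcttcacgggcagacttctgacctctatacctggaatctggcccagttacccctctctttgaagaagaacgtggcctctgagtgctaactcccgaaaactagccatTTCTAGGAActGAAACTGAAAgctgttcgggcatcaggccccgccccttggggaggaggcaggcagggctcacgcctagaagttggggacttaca
Irgm2 (chr11:58214727-58215026, plus strand): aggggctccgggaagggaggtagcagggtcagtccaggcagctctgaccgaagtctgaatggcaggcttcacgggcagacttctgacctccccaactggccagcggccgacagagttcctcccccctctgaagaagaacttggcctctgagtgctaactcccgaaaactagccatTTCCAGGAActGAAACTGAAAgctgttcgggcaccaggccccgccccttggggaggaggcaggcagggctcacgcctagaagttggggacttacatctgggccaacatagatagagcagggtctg
Irf1 (chr11:53769764-53770063, plus strand): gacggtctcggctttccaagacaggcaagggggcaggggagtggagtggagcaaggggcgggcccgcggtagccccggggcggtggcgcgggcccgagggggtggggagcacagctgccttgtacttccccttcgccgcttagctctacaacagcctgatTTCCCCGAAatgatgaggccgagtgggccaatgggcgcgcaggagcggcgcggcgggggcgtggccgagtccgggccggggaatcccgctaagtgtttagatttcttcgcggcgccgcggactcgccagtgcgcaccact

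A window was at hand for 27 of the 36 genes. The core of the response element was present in 17 of these (63.0%), against 1079 of 27025 genes with a window (3.99%). The gamma-activated site was present in 9 of 27 (33.3%), against 2582 of 27025 genes (9.55%). By role, the response element core was found in 3 of 5 type I responsive genes (Ifit1, Ifit3 and Oas1a) and in 6 of 6 gamma-responsive GTPases. The gamma-activated site was found in 2 of 5 (Ifit2 and Oas1a) and in 3 of 6 (Igtp, Irgm2 and Gbp7). In Igtp the gamma-activated site lay at positions -45 to -37 from the start and the response element core at -34 to -25, with 2 bases between them. In Irgm2 they lay at -75 to -67 and -64 to -55, again 2 bases apart, and the windows of Igtp and Irgm2 shared a run of 61 identical bases. Tgtp1 had the same 2-base spacing. In Isg15 there were 3 cores that overlapped each other, between -78 and -57. Ifit3 had 2 cores, at -156 to -147 and at -122 to -113. These are matches of letters only, and binding was not measured. The windows of Ifit1, Ifit2 and Ifit3 lie near each other on chromosome 19 and those of Gbp2, Gbp3 and Gbp7 on chromosome 3. On chromosome 11, Igtp and Irgm2 lie together, and Irgm1, Tgtp1 and Ifi47 lie together at another place.

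Libraries held 13.5 to 20.8 M counted reads, and no difference in totals between the groups compared passed (lowest p = 0.19, two-sided exact permutation test, 0.473 adjusted over 8 tests). The share of reads from mitochondrially encoded genes fell under elemental MR from 14.8% ± 0.979 to 12.3% ± 0.403 and under casein MR from 14.3% ± 0.814 to 12.2% ± 0.622 (SD, n = 6; two-sided exact permutation p = 0.00216, the smallest possible, adjusted p = 0.00864 for each), and its part in the results was not tested. Hepatocyte genes such as Alb were abundant in every library, as the label liver implies. C_MR_3438 stood apart: 11 skeletal muscle genes summed to 2149 CPM there (a gene's reads scaled to the size of its library) and to at most 76.0 CPM in any other library. All 11 were called with casein MR and none without that library, so counts for casein MR are also given without it. In bulk tissue, a change in the number of cells of a type and a change of RNA per cell cannot be told apart.

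Many of the 35 genes tested were higher under MR with both protein sources, and none of the 35 was lower. Because the list was chosen with earlier results known, its counts do not stand for all interferon-stimulated genes. Counts for other genes of that class are given further below. Genes were called at an adjusted p under 0.05 in edgeR's quasi-likelihood test, with Benjamini-Hochberg adjustment over 13441 genes. With free amino acids, 12 of 35 genes were higher under MR, beside 6.78% of all genes tested. None of the 35 was lower, beside 6.64%. With casein, 20 of 35 were higher, beside 10.6% of all genes, and none was lower, beside 12.7%. Without C_MR_3438, 15 of those 20 kept their call and none was gained. The median log2 fold change of the 35 was 0.38 with elemental MR and 0.49 with casein MR, where the median over all genes tested was -0.0028 and 0.0097. All 12 genes called with elemental MR were also called with casein MR, a further 8 with casein MR alone and 15 with neither. The overlap of 12 has no all-gene value beside it, so it is not shown to be particular to these genes. The comparisons had no library in common, but all libraries were fitted together. Both therefore used the same estimate of each gene's spread and were not independent. Averaged over the protein sources, 22 of 35 were higher under MR (14.7% of all genes) and none was lower (15.5% of all genes). The 36 genes together took 0.0939% to 0.134% of reads in elemental controls and 0.143% to 0.191% in elemental MR. They took 0.110% to 0.153% in casein controls and 0.187% to 0.260% in casein MR, so neither MR group overlapped its own control in this sum. The sum leans on abundant genes: over all libraries Iigp1 alone had 241842 reads, and Ifi27, the next, had 54448. It is a share of all reads, mitochondrial ones included, whose own share fell under MR, and it has no all-gene value beside it.

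**Figure D1:**
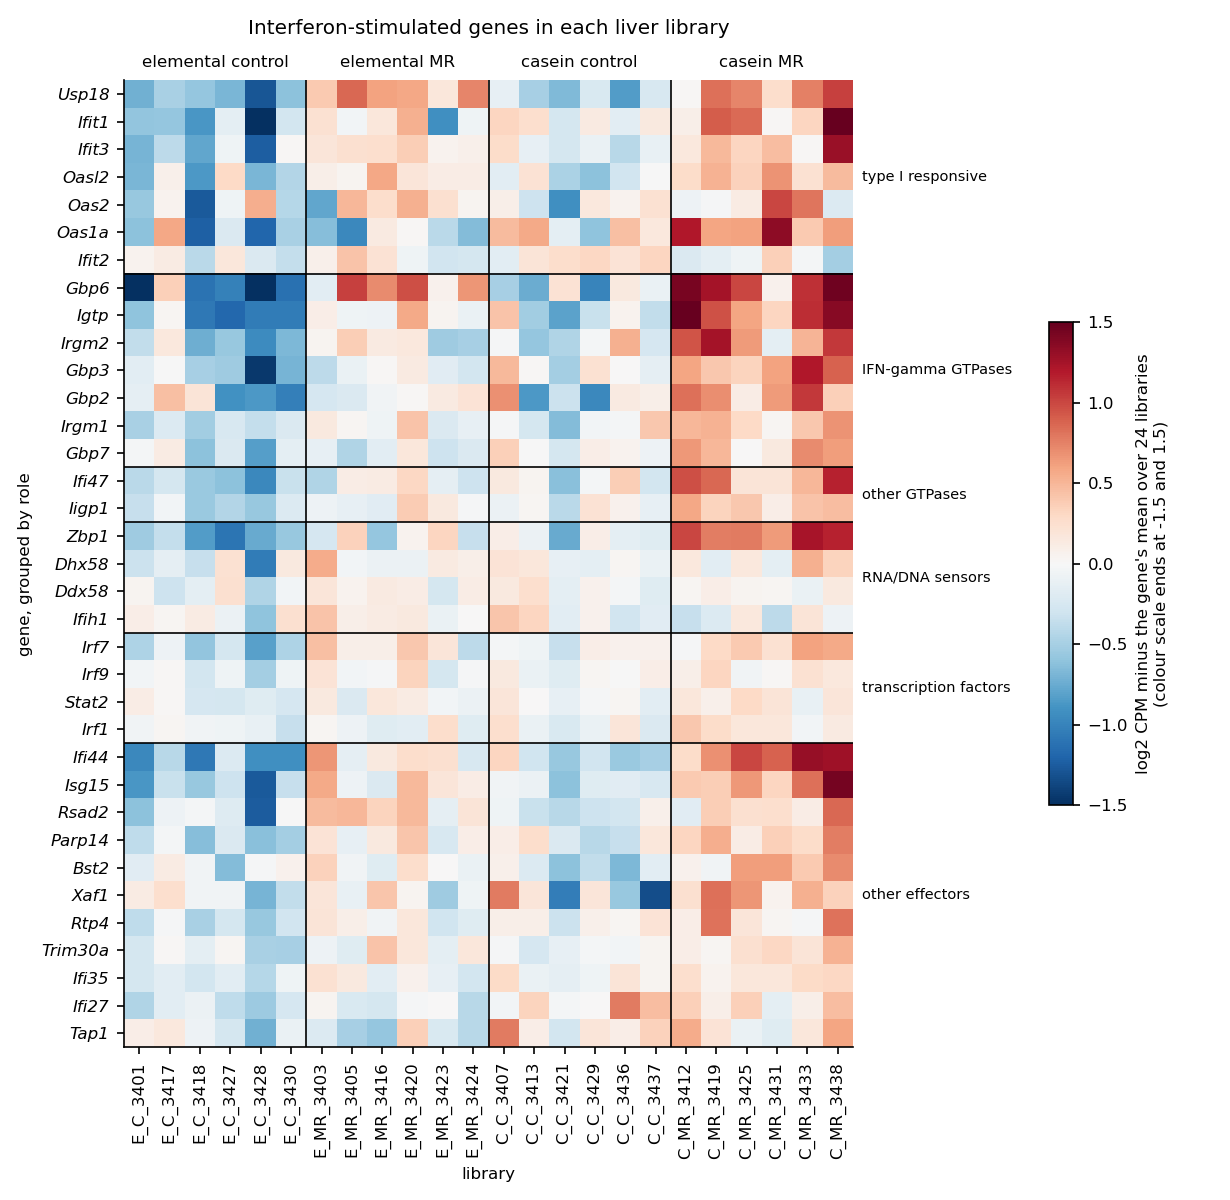
Each row is 1 of the 35 genes tested, grouped by role, and each column 1 library; the colour gives log2 CPM minus the gene's mean over the 24 libraries. Elemental controls are mostly blue and casein MR libraries mostly red, with Ifit2, Ddx58, Ifih1 and Tap1 among the rows that do not follow this.

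Among the type I responsive genes, Usp18 rose most. It encodes a protease that removes ISG15 from proteins and damps signalling at the type I receptor. Usp18 lay at 4.88 to 8.54 CPM (median 7.63) in elemental controls and at 13.5 to 22.03 (median 18.2) in elemental MR. In casein controls it lay at 6.71 to 11.1 (median 9.35) and in casein MR at 12.2 to 24.7 (median 20.2). All 6 MR libraries lay above all 6 control libraries with either protein. Its log2 fold change was 1.29 ± 0.16 with elemental MR (± standard error, adjusted p = 3.27e-06) and 1.06 ± 0.16 with casein MR (adjusted p = 1.2e-05).

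Ifit3, of a family whose proteins bind viral RNA, lay at 6.82 to 16.4 CPM (median 11.1) in elemental controls and at 16.9 to 20.98 (median 18.8) in elemental MR, with no overlap. In casein controls it lay at 12.1 to 19.6 (median 14.95) and in casein MR at 16.4 to 39.9 (median 21.4), and these groups overlapped. The log2 fold changes were 0.66 ± 0.19 (adjusted p = 0.0198) and 0.63 ± 0.19 (adjusted p = 0.0131). Without C_MR_3438, its highest library, the casein call was lost (log2 fold change 0.41, adjusted p = 0.0626), and without E_C_3418 the elemental call was lost (adjusted p = 0.0502). Ifit3 has a near-identical copy, Ifit3b, so its counts are uncertain. Ifit1 ran from 12.1 to 35.9 CPM (median 26.4) in elemental controls and from 20.99 to 57.6 (median 41.6) in elemental MR. It ran from 33.1 to 49.9 (median 43.8) in casein controls and from 40.2 to 125 (median 60.7) in casein MR. Its log2 fold changes, 0.66 and 0.67, were close to those of Ifit3 but missed the threshold in each comparison (adjusted p = 0.0862 and 0.0514). Without C_MR_3438 the casein value of Ifit1 was 0.40 (adjusted p = 0.228). Averaged over both protein sources Ifit1 rose by 0.67 ± 0.18 (adjusted p = 0.005).

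Of the Oas genes, which encode sensors of double-stranded RNA and their relatives, Oasl2 rose with both proteins. It lay at 2.92 to 6.71 CPM (median 3.64) in elemental controls and at 5.60 to 8.17 (median 5.86) in elemental MR. It lay at 3.49 to 6.31 (median 4.64) in casein controls and at 6.37 to 8.68 (median 7.23) in casein MR, where every MR library was above every control. The log2 fold changes were 0.52 ± 0.17 (adjusted p = 0.0485) and 0.64 ± 0.17 (adjusted p = 0.00739). The elemental call was borderline, lost in 19 of 24 fits with 1 library removed, with an adjusted p of up to 0.129 without E_MR_3416. Oas1a was a low gene, at 0.244 to 1.14 CPM (median 0.457) in elemental controls, 0.311 to 0.811 (median 0.471) in elemental MR, 0.437 to 1.13 (median 0.931) in casein controls and 0.991 to 2.02 (median 1.17) in casein MR. It did not pass under MR with either protein (0.0076 with amino acids, adjusted p = 0.994, and 0.70 with casein, adjusted p = 0.106), and reads may be shared with its copy Oas1g. Oas2 (0.39 and 0.46) and Ifit2 (0.13 and -0.30) did not pass in either comparison, with a lowest adjusted p of 0.275. Over the 24 libraries Oas2 lay at 0.487 to 2.79 CPM and Ifit2 at 1.05 to 2.12 CPM. Over the 7 genes, 3 were called with each protein, and 6 had a positive log2 fold change in both comparisons.

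**Figure D2:**
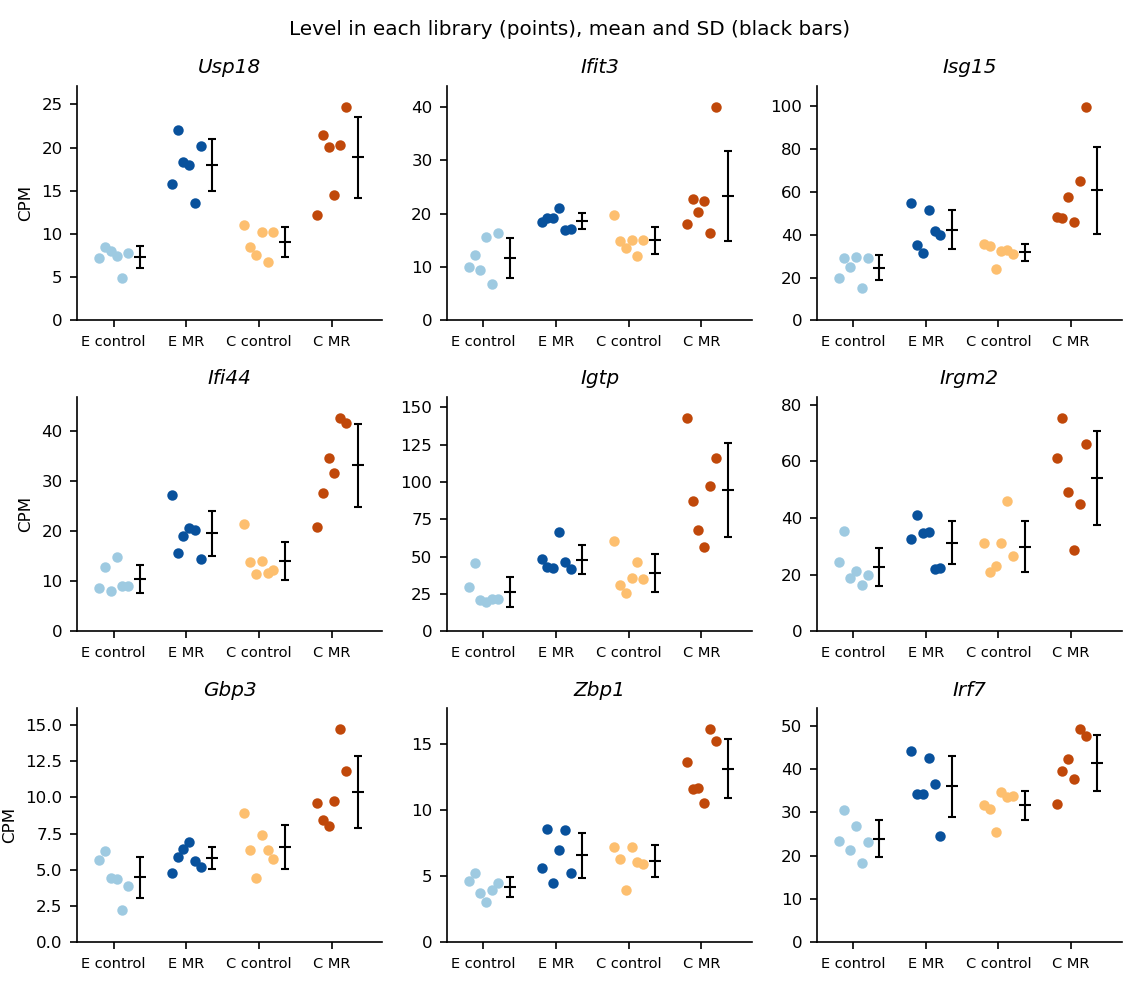
Level in CPM of 9 genes in each of the 24 libraries (points; E elemental, C casein; 6 per group), with the group mean and SD (black bars) and each axis from 0. All MR libraries of Usp18 and Isg15 lie above the controls of the same protein, and C_MR_3438 is the highest point of Usp18, Ifit3 and Isg15.

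The gamma-responsive GTPases were all called with casein MR, and 2 of 7 were called with elemental MR. Igtp, an immunity-related GTPase, lay at 19.9 to 45.9 CPM (median 21.6) in elemental controls and at 42.1 to 66.8 (median 44.6) in elemental MR. In casein controls it lay at 25.7 to 60.4 (median 35.3) and in casein MR at 56.5 to 143 (median 92.4). In both pairs 1 control library, E_C_3417 (45.9 CPM) or C_C_3407 (60.4 CPM), reached into the range of the MR libraries. The log2 fold changes were 0.85 ± 0.23 (adjusted p = 0.011) and 1.28 ± 0.22 (adjusted p = 8.49e-05). Without C_MR_3438 the latter was 1.21 (adjusted p = 0.00028). In GENCODE M21 the span of Igtp overlaps that of Irgm2 on the same strand, and how reads in the overlap were counted is not given in the sources used here.

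Gbp6, a guanylate-binding protein, had the largest log2 fold change of the 35 genes with either protein, and few reads. It passed the filter on low counts mainly through MR libraries, where its reads were highest. Fits on only an MR group and its control left it out, as did the stricter filter. So its calls and its rank are those of a gene that the MR libraries brought into the tests. It had 0 to 11 reads in a library of elemental controls and 7 to 19 in elemental MR. It had 3 to 10 reads in casein controls and 10 to 34 in casein MR. The log2 fold changes were 1.99 ± 0.50 (adjusted p = 0.00782) and 1.60 ± 0.44 (adjusted p = 0.00803), and E_C_3417 held the 11 reads that overlapped the MR libraries. E_C_3401 and E_C_3428 had 0 reads, so the size of the elemental fold change depends on the model. Per library size, C_C_3421 and C_C_3436 lay above C_MR_3431. A near-identical copy, Gbp10, makes its counts uncertain.

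The remaining 5 of this group passed with casein MR but not with elemental MR. Irgm2, a regulator of the effector GTPases, lay at 16.4 to 35.4 CPM (median 20.5) in elemental controls, 21.9 to 40.9 (median 33.8) in elemental MR, 21.1 to 46.04 (median 28.9) in casein controls and 28.7 to 75.2 (median 55.2) in casein MR. It rose by 0.86 ± 0.21 with casein (adjusted p = 0.00359), and its elemental value was 0.46 ± 0.22 (adjusted p = 0.175). Irgm1, of the same regulatory kind, lay at 8.44 to 10.6 CPM (median 9.90), 10.4 to 16.4 (median 11.99), 7.69 to 16.1 (median 11.9) and 12.5 to 19.5 (median 16.7) in the same order of groups. Its values were 0.49 ± 0.13 (adjusted p = 0.00707) and 0.38 ± 0.14 (adjusted p = 0.0647). The guanylate-binding proteins gather on the membranes of intracellular microbes. Gbp3 lay at 2.25 to 6.31 CPM (median 4.41), 4.79 to 6.94 (median 5.77), 4.40 to 8.89 (median 6.38) and 7.996 to 14.7 (median 9.65), again in that order. It rose by 0.67 ± 0.19 with casein MR (adjusted p = 0.00872), against 0.38 ± 0.19 with elemental MR (adjusted p = 0.226).

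Gbp2 and Gbp7 passed more narrowly. Gbp2 lay at 2.52 to 7.21 CPM (median 3.78), 4.37 to 6.06 (median 5.18), 2.62 to 8.46 (median 4.86) and 5.68 to 10.999 (median 8.38), with a log2 fold change of 0.75 ± 0.25 with casein MR (adjusted p = 0.0319). Gbp7 lay at 25.9 to 50.2 CPM (median 40.7), 33.7 to 52.1 (median 40.5), 38.3 to 59.4 (median 46.9) and 46.3 to 75.7 (median 68.5), with 0.43 ± 0.14 (adjusted p = 0.0297). All 4 groups overlapped for both genes. Their elemental values were 0.26 ± 0.26 and 0.080 ± 0.14 (adjusted p = 0.585 and 0.787). Each lost its casein call in 6 of the 24 fits without 1 library: Gbp2 without C_C_3413, C_C_3421, C_C_3429, C_MR_3412, C_MR_3419 or C_MR_3433, and Gbp7 without C_C_3421, C_C_3437, C_MR_3412, C_MR_3419, C_MR_3433 or C_MR_3438 (adjusted p of up to 0.0817 and 0.0774). In the average over both protein sources Gbp2 was called (0.51 ± 0.18, adjusted p = 0.0363), a call lost in 10 of those fits, and Gbp7 was not (adjusted p = 0.0599).

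Of the other GTPases, Iigp1 passed with both proteins and Ifi47 with casein MR. Iigp1, the effector that coats parasite vacuoles, lay at 386 to 559 CPM (median 437) in elemental controls, 508 to 749 (median 554) in elemental MR, 435 to 667 (median 561) in casein controls and 614 to 858 (median 766) in casein MR. It rose by 0.38 ± 0.11 (adjusted p = 0.0167) and by 0.43 ± 0.11 (adjusted p = 0.00345), and the elemental call was lost without E_MR_3420 (adjusted p = 0.0542). Ifi47, another immunity-related GTPase, lay at 25.6 to 41.96 CPM (median 36.1), 36.8 to 62.4 (median 50.1), 32.5 to 64.98 (median 50.6) and 57.5 to 112 (median 81.3) in the same order. It rose with casein MR by 0.72 ± 0.17 (adjusted p = 0.00218), with an elemental value of 0.47 ± 0.17 (adjusted p = 0.0682). Its span overlaps Olfr56 on the same strand. Tgtp1, below the filter, had 0 to 6 reads in every library but those of casein MR, where it had 4 to 11, and with no filter it passed with casein MR (1.78 ± 0.63, adjusted p = 0.0443). Its near-identical copy, Tgtp2, makes these counts uncertain.

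The type I responsive genes and the GTPases were set side by side with each protein. With elemental MR, 3 of 7 type I responsive genes and 2 of 7 GTPases were called, with median log2 fold changes of 0.52 and 0.38. With casein MR the counts were 3 and 7, with medians of 0.64 and 0.75. Without C_MR_3438 they were 2 and 6, with medians of 0.56 and 0.79. Each of these GTPase counts includes Gbp6, which passed the filter mainly through MR libraries. The difference between the MR effects (casein minus elemental) was tested gene by gene, and none of the 35 passed, beside 2.34% of all genes called in either direction. In edgeR's quasi-likelihood test 1 of the 35 had an unadjusted p under 0.05, beside 12.3% of all genes, and DESeq2 and limma-voom called none either. The lowest adjusted p was 0.174, for Bst2. So the call of a GTPase with casein and not with amino acids is not a shown difference between the proteins. The median difference was 0.35 for the GTPases, from -0.40 (Gbp6) to 0.49 (Gbp2), and 0.0086 for the type I responsive genes. The latter was -0.25 without C_MR_3438.

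**Figure D3:**
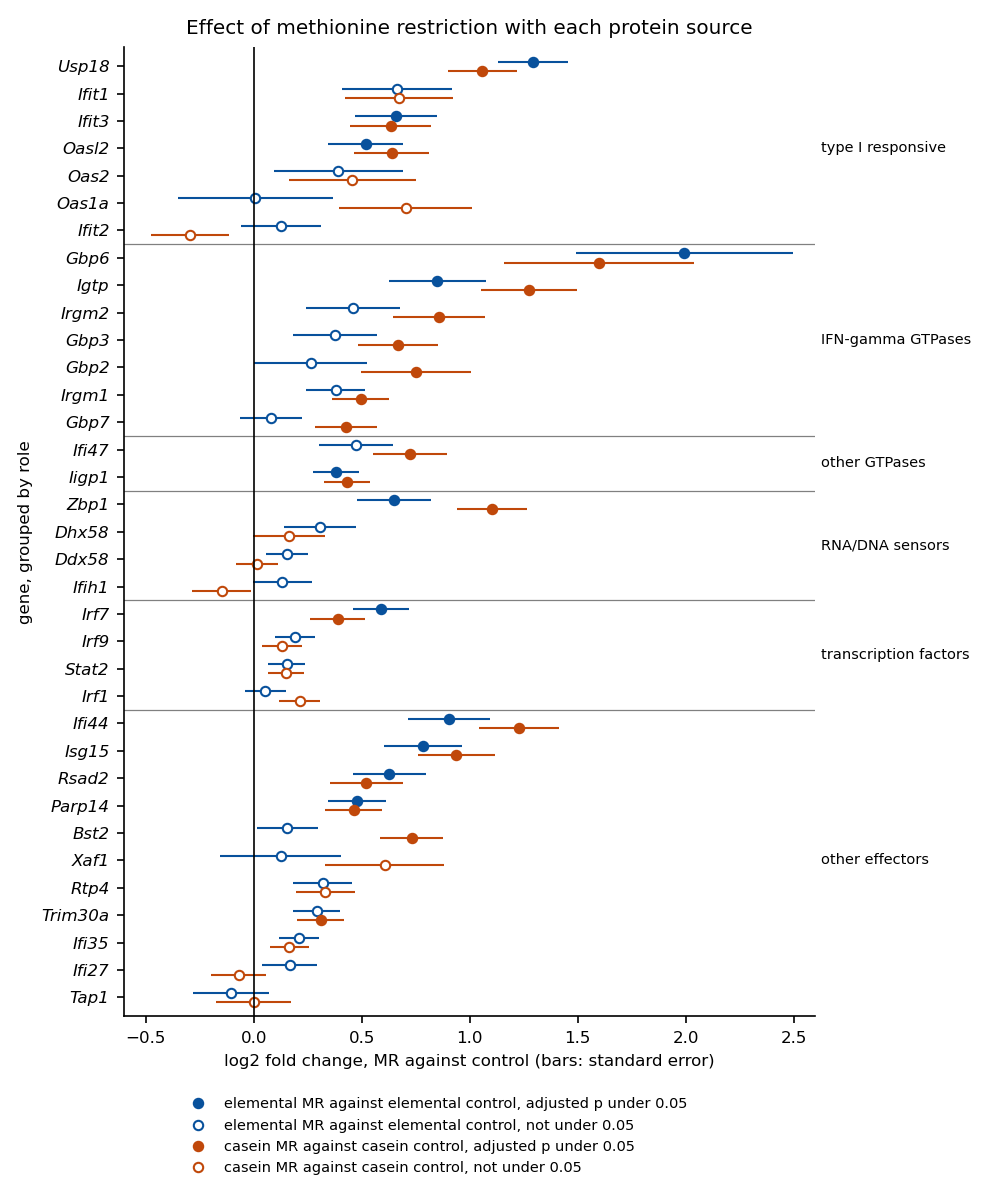
Log2 fold change of each gene under MR with free amino acids (blue) and with casein (orange), with its standard error; filled points have an adjusted p under 0.05. All 7 GTPases are filled for casein and 2 for amino acids, while 3 type I responsive genes are filled for each. Both GTPase counts include Gbp6, which passed the filter on low counts mainly through MR libraries.

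Both groups of genes were also read in single libraries. For each library the log2 CPM of 7 genes, minus each gene's mean over the 24 libraries, was averaged. For the GTPases this average ran from -1.12 to 0.13 in elemental controls, from -0.14 to 0.35 in elemental MR, from -0.42 to 0.20 in casein controls and from 0.24 to 0.94 in casein MR. For the type I responsive genes it ran from -0.85 to -0.093, from -0.15 to 0.32, from -0.35 to 0.11 and from 0.21 to 0.62. The casein MR libraries lay above the casein controls in both averages, while the elemental groups overlapped. For the GTPases this separation rested on Gbp6, which passed the filter on low counts mainly through MR libraries. Their average was 0.24 in C_MR_3431 and 0.20 in C_C_3407, where Gbp6 alone had 0.066 and -0.50. Neither separation has an all-gene value beside it. C_MR_3431 was the lowest of casein MR for the GTPases (0.24) and the second highest for the type I responsive genes (0.59), and C_MR_3412 was the highest for the GTPases (0.94) and the lowest for the type I responsive genes (0.21). E_C_3417 was the highest elemental control for all 7 GTPases and for 20 of the 35 genes, and E_C_3428 was the lowest for 20 of 35. Among casein controls C_C_3407 was the highest for 18 and C_C_3421 the lowest for 18. C_MR_3438 was the highest of its group for 16 of 35 genes, 3 type I responsive genes and 2 GTPases among them. No batch is named in the labels, and these libraries share no number.

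**Figure D4:**
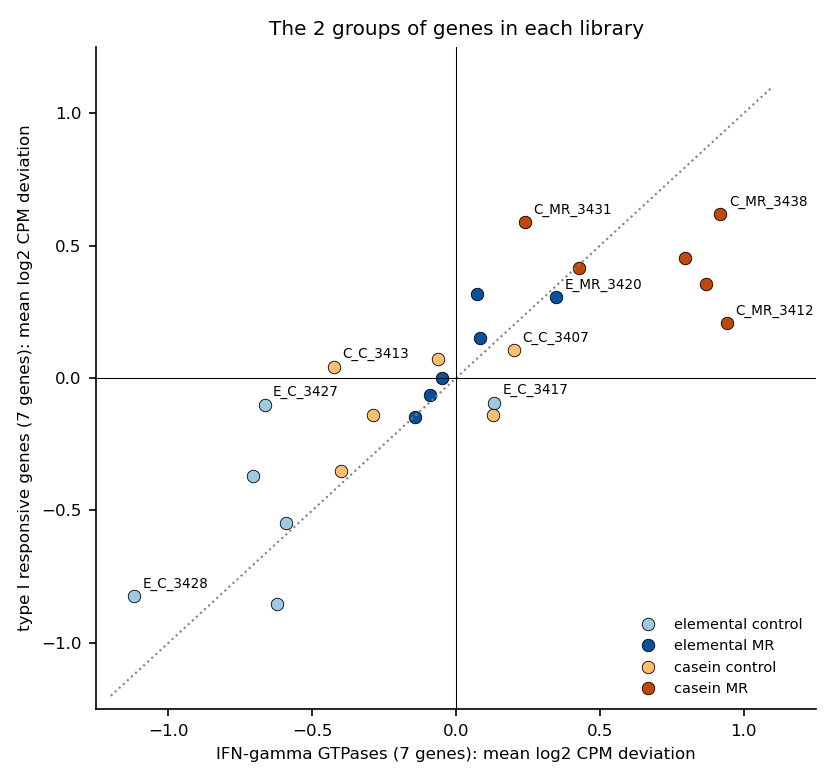
Each point is a library, placed by its mean log2 CPM deviation over 7 gamma-responsive GTPases (horizontal) and 7 type I responsive genes (vertical), with the line of equal values dotted. The GTPases include Gbp6, which passed the filter on low counts mainly through MR libraries. Casein MR libraries lie from 0.24 to 0.94 for the GTPases and from 0.21 to 0.62 for the type I responsive genes, and the lowest points of both axes are elemental controls, of which E_C_3417 alone is above 0 for the GTPases.

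Of the nucleic acid sensors only Zbp1 passed. Zbp1, a sensor of Z-form nucleic acid that can trigger cell death, lay at 3.08 to 5.23 CPM (median 4.22) in elemental controls and at 4.49 to 8.59 (median 6.32) in elemental MR. It lay at 3.93 to 7.24 (median 6.20) in casein controls and at 10.5 to 16.1 (median 12.6) in casein MR, above every other library. It rose by 0.65 ± 0.17 (adjusted p = 0.0105) and by 1.10 ± 0.16 (adjusted p = 9.07e-06). The cytosolic RNA sensors of the RIG-I family did not pass with either protein. Their log2 fold changes were 0.16 and 0.016 for Ddx58, 0.13 and -0.15 for Ifih1 and 0.31 and 0.16 for Dhx58, with a lowest adjusted p of 0.256. Over all 24 libraries Ddx58 lay at 17.5 to 28.7 CPM, Ifih1 at 13.4 to 27.5 CPM and Dhx58 at 2.88 to 9.04 CPM, with overlap in every pair of groups compared.

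Among the transcription factors Irf7 rose and Irf1, Irf9 and Stat2 did not pass. Irf7, which drives type I interferon genes and is itself induced by them, lay at 18.3 to 30.7 CPM (median 23.3) in elemental controls and at 24.5 to 44.1 (median 35.4) in elemental MR. It lay at 25.4 to 34.6 (median 32.7) in casein controls and at 31.97 to 49.2 (median 40.9) in casein MR, and both pairs of groups overlapped. It rose by 0.59 ± 0.13 (adjusted p = 0.00244) and by 0.39 ± 0.13 (adjusted p = 0.0261). The casein call was lost without C_C_3421, C_MR_3433 or C_MR_3438 (adjusted p of up to 0.0731). Irf7 overlaps Phrf1 on the opposite strand, and whether strand was used in counting is not given in the sources used here. Irf1, the factor downstream of interferon gamma, lay at 41.4 to 53.8 CPM (median 50.6), 46.5 to 63.4 (median 48.6), 44.8 to 62.99 (median 49.3) and 51.2 to 69.8 (median 59.4) in the same order of groups. Its log2 fold changes were 0.054 ± 0.093 (adjusted p = 0.777) and 0.21 ± 0.093 (adjusted p = 0.106). With casein MR, Irf1 passed in limma-voom (adjusted p = 0.0399) and without C_C_3407 (adjusted p = 0.0252) or C_C_3436 (adjusted p = 0.0454).

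Irf9 and Stat2 encode parts of the complex formed after type I interferon. Irf9 lay at 34.8 to 50.2 CPM (median 47.3), 41.3 to 62.2 (median 48.97), 43.4 to 54.5 (median 49.7) and 47.9 to 61.6 (median 53.9), with log2 fold changes of 0.19 and 0.13. Its span overlaps Rnf31 on the same strand. Stat2 lay at 20.4 to 26.3 CPM (median 20.97), 20.9 to 27.4 (median 25.2), 21.8 to 27.6 (median 24.3) and 22.7 to 29.97 (median 27.6), with 0.15 and 0.15. Averaged over both protein sources they had 0.16 ± 0.066 (adjusted p = 0.0666) and 0.15 ± 0.059 (adjusted p = 0.0545), just outside the threshold.

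Of the 11 other effectors, 4 were called with elemental MR and 6 with casein MR. Isg15, a ubiquitin-like protein that is attached to other proteins and removed by Usp18, lay at 15.3 to 29.7 CPM (median 26.9) in elemental controls and at 31.7 to 54.9 (median 40.8) in elemental MR. It lay at 24.1 to 35.6 (median 32.7) in casein controls and at 46.2 to 99.6 (median 53.1) in casein MR. Like Usp18, it had every MR library above every control with both proteins. Its log2 fold changes were 0.78 ± 0.18 (adjusted p = 0.0037) and 0.94 ± 0.18 (adjusted p = 0.000233), the latter 0.74 without C_MR_3438 (adjusted p = 0.00069). MR libraries all above the controls were found for 3 of 35 genes with elemental MR (Usp18, Ifit3 and Isg15), beside 3.24% of all genes, and for 4 with casein MR (Usp18, Oasl2, Zbp1 and Isg15), beside 4.82%. Ifi44, an antiviral protein, lay at 8.12 to 14.9 CPM (median 9.03) in elemental controls and at 14.5 to 27.2 (median 19.7) in elemental MR. It lay at 11.5 to 21.5 (median 13.04) in casein controls, where only C_C_3407 reached the MR range, and at 20.9 to 42.5 (median 33.1) in casein MR. It rose by 0.90 ± 0.19 (adjusted p = 0.00166) and by 1.23 ± 0.18 (adjusted p = 1.2e-05).

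Rsad2 encodes viperin, which makes a nucleotide that stops viral RNA synthesis. It lay at 17.4 to 41.4 CPM (median 37.7), 37.9 to 58.5 (median 54.9), 31.1 to 43.8 (median 33.9) and 36.7 to 75.2 (median 49.1), in the same order of groups as before. It rose by 0.63 ± 0.17 (adjusted p = 0.0128) and by 0.52 ± 0.17 (adjusted p = 0.025). The casein call was lost without C_C_3421 or C_MR_3438 (adjusted p of up to 0.0954). Parp14, an ADP-ribosyltransferase, lay at 22.7 to 34.8 CPM (median 26.1), 29.9 to 47.3 (median 38.6), 26.5 to 42.5 (median 34.3) and 38.3 to 60.3 (median 44.8). It rose by 0.48 ± 0.13 (adjusted p = 0.0162) and by 0.46 ± 0.13 (adjusted p = 0.0107).

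Bst2 and Trim30a passed with casein MR. Bst2 encodes tetherin, which holds budding viruses at the cell surface. It lay at 37.9 to 64.9 CPM (median 57.9), 52.3 to 75.6 (median 58.5), 37.3 to 62.6 (median 48.8) and 57.4 to 97.2 (median 85.2) in the same order. It rose by 0.73 ± 0.14 with casein (adjusted p = 0.000358) and had 0.16 ± 0.14 with amino acids (adjusted p = 0.546). Trim30a, of a family of ubiquitin ligases, lay at 11.03 to 15.9 CPM (median 13.5), 13.8 to 21.1 (median 16.2), 13.1 to 16.1 (median 15.2) and 16.01 to 22.4 (median 18.2). Its casein value was 0.31 ± 0.11 (adjusted p = 0.039) and its elemental value 0.29 ± 0.11 (adjusted p = 0.0819). The call of Trim30a was lost without C_C_3413, C_C_3421, C_MR_3425, C_MR_3431 or C_MR_3438 (adjusted p of up to 0.116). Rtp4 and Ifi35 passed only in the average over both protein sources. Rtp4 lay at 23.5 to 34.6 CPM (median 27.9), 28.5 to 39.97 (median 35.5), 28.1 to 40.4 (median 36.96) and 34.7 to 61.8 (median 38.6), and rose by 0.32 ± 0.097 (adjusted p = 0.012). Ifi35 lay at 10.4 to 13.4 CPM (median 12.1), 11.6 to 16.5 (median 13.7), 12.7 to 17.2 (median 13.9) and 14.6 to 17.4 (median 16.3), and rose by 0.19 ± 0.064 (adjusted p = 0.0281), a call lost in 4 of 24 fits with 1 library removed. Ifi27, Xaf1 and Tap1 did not pass under MR: their log2 fold changes were 0.17 and -0.070, 0.12 and 0.61, and -0.11 and -0.0011, elemental first. Over the 24 libraries they lay at 90.3 to 226 CPM, 0.600 to 3.10 CPM and 15.96 to 45.3 CPM. Tap1, a peptide transporter of antigen presentation, overlaps Psmb9 on the opposite strand, and Rtp4 overlaps Masp1 in the same way.

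The protein source was also compared directly. Between the control diets none of the 35 genes passed, beside 14 of 13441 genes (0.104%) called in either direction. In edgeR's quasi-likelihood test 13 of the 35 had an unadjusted p under 0.05, beside 11.7% of all genes, and DESeq2 called 1 (Ifi27, adjusted p = 0.00532) and limma-voom none. The median log2 difference, casein minus elemental, was 0.30 over the 35 genes and 0.0023 over all genes tested. It was 0.30 for the type I responsive genes and 0.40 for the GTPases, and 33 of 35 values were positive, beside 50.66% of all genes. Ifi27, an interferon-induced mitochondrial protein, had the lowest adjusted p (log2 difference 0.59 ± 0.13, adjusted p = 0.0627). It lay at 90.3 to 124 CPM (median 106) in elemental controls and at 128 to 226 (median 149) in casein controls, the 1 gene of 35 whose control groups did not overlap, beside 0.327% of all genes with every casein control above every elemental control. Without C_C_3407 Ifi27 passed (adjusted p = 0.0327), the 1 of 35 that did.

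Between the MR diets 9 of 35 genes were higher with casein than with free amino acids, beside 2.72% of all genes, and none was lower, beside 3.78%. They were 4 gamma-responsive GTPases, 2 other GTPases (Iigp1 and Ifi47), Oas1a, Zbp1 and Ifi44. The GTPases were Igtp (0.98 ± 0.22, adjusted p = 0.00535), Gbp3 (0.84 ± 0.19, adjusted p = 0.00468), Irgm2 (0.79 ± 0.21, adjusted p = 0.0211) and Gbp7 (0.64 ± 0.14, adjusted p = 0.00523). Zbp1 was higher by 0.99 ± 0.16 (adjusted p = 0.000182), Ifi44 by 0.76 ± 0.18 (adjusted p = 0.00854) and Oas1a by 1.36 ± 0.32 (adjusted p = 0.00795). Ifi47 was higher by 0.73 ± 0.17 (adjusted p = 0.0072) and Iigp1 by 0.36 ± 0.11 (adjusted p = 0.0412). Every casein MR library lay above every elemental MR library for 3 of 35 genes, Oas1a, Gbp3 and Zbp1, beside 1.58% of all genes. The median was 0.68 for the GTPases and 0.23 for the type I responsive genes, against -0.00042 over all genes. Usp18, by contrast, had a value of 0.071 ± 0.15 (adjusted p = 0.867). Without C_MR_3438, 7 of the 9 kept their call, and Irgm2 (adjusted p = 0.0538) and Iigp1 (adjusted p = 0.0816) lost it. Irgm2 also lost it without E_MR_3423, E_MR_3424 or C_MR_3419, and Iigp1 in 9 of 24 fits in all. This comparison shares its libraries with the MR comparisons above, and here the casein is labelled oxidized.

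The rest of the pathway was read from lists of other genes. The 21 interferon genes listed had no row among the 15161 and were not analysed here. Ifnar2, a chain of the type I receptor, rose by 0.21 ± 0.053 (adjusted p = 0.00782) and by 0.18 ± 0.053 (adjusted p = 0.0134). Ifnar1, Ifngr1, Ifngr2, Jak1, Jak2 and Tyk2 did not pass, with log2 fold changes from -0.072 to 0.27. Of 9 negative regulators tested none was called with elemental MR, and 1 rose and 1 fell with casein MR. Of all genes, 6.78% were called higher and 6.64% lower with elemental MR, and 10.6% and 12.7% with casein MR. The feedback inhibitors Socs1 (-0.0064 and 0.29) and Socs3 (-0.78 and -0.18) did not pass, and Irf2, a repressor of interferon targets, fell by 0.38 on the log2 scale with casein MR (adjusted p = 0.00158).

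Of 14 genes that lead to interferon production, 2 rose and 3 fell with elemental MR, and 1 rose and 2 fell with casein MR. Over all genes tested, 6.78% were called higher and 6.64% lower with elemental MR, and 10.6% and 12.7% with casein MR. Irf5, a factor of Toll-like receptor signalling, fell by 0.92 ± 0.18 with elemental MR (adjusted p = 0.000627) and fell by 1.74 ± 0.18 with casein MR (adjusted p = 4.26e-08). It lay at 8.57 to 21.1 CPM (median 17.01) in casein controls and at 4.27 to 5.10 (median 4.71) in casein MR, with no overlap, a direction opposite to that of Irf7. No all-gene share of groups parted in the lower direction is given beside it. The kinase gene Ikbke fell by 0.70 (adjusted p = 0.00479) and fell by 0.56 (adjusted p = 0.0137). Of 59 other interferon-stimulated genes tested, 2 rose and none fell with elemental MR, and 10 rose and 5 fell with casein MR, beside the all-gene shares of 6.78% higher and 6.64% lower, and of 10.6% higher and 12.7% lower. Without C_MR_3438, 7 rose and 5 fell. The 5 that fell, named after their values were seen, were Cxcl11, a chemokine (-0.84), Oasl1, an Oas relative (-0.75), Ly6e (-0.39), Ifitm3, a block to virus entry (-0.34), and Ifi30, a lysosomal thiol reductase (-0.23). The median log2 fold change of the 59 was 0.18 with elemental MR and 0.23 with casein MR. Cmpk2, a nucleotide kinase gene that lies beside Rsad2, rose by 1.12 ± 0.24 and 1.12 ± 0.23 (adjusted p = 0.00193 and 0.000744). Ube2l6 and Herc6, enzymes that attach ISG15, rose with casein MR by 0.61 ± 0.11 and 0.62 ± 0.12 (adjusted p = 0.000223 and 0.000259).

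Markers of other cells were read beside these results. Over all genes tested, 49.36% had a positive log2 fold change with elemental MR and 51.54% with casein MR. For the difference between the MR effects it was 49.83%. With elemental MR 6.78% of all genes were called higher and 6.64% lower, and with casein MR 10.6% and 12.7%. The 20 Kupffer cell and macrophage markers summed to 681 to 1024 CPM in elemental controls, 652 to 999 in elemental MR, 641 to 1011 in casein controls and 865 to 1332 in casein MR. With casein MR 19 of the 20 had a positive log2 fold change (median 0.20), against 8 of 20 with elemental MR (median -0.059), and the difference between the MR effects was positive for 19 of 20 (median 0.25) with none called. Without C_MR_3438 the casein count was again 19 (median 0.23). In either MR comparison 1 of the 20 rose, the iron exporter Slc40a1 (0.84 and 0.63, adjusted p = 3.77e-06 and 4.75e-05), and Mpeg1 fell with elemental MR (-0.47, adjusted p = 0.0245). The 19 lymphocyte markers of T, NK and NKT cells in the table summed to 21.1 to 41.8 CPM in elemental controls, 17.2 to 32.5 in elemental MR, 19.5 to 38.6 in casein controls and 23.7 to 38.5 in casein MR. Of the 15 tested, 12 had a positive log2 fold change with elemental MR (median 0.20) and 14 with casein MR (median 0.24), and none was called higher. Cd4 fell by 2.35 with amino acids and fell by 2.73 with casein (adjusted p = 0.00115 and 2.05e-05), and with casein it alone was not positive. The 11 dendritic cell markers other than Bst2 summed to 73.3 to 81.1 and 60.1 to 72.3 CPM in elemental controls and MR, and to 68.2 to 86.6 and 63.0 to 72.5 CPM in casein controls and MR. The elemental MR libraries lay below all elemental controls in this sum, but most of it was 1 gene, Tcf4. Tcf4 lay at 58.4 to 64.9 CPM in elemental controls and at 46.1 to 55.5 in elemental MR. With casein MR and without C_MR_3438, 5 of the 9 tested had a positive log2 fold change (median 0.15), with none called higher and 1 lower. No B cell marker (of 7) and no neutrophil or monocyte marker (of 5) passed with either protein. Of 20 endothelial markers 1 rose with elemental MR and 1 fell with casein MR, of 15 stellate cell and fibroblast markers 2 fell and 1 rose in the same order, and of 5 cholangiocyte markers 1 fell and 3 fell. The stellate marker that rose was Des, also a muscle gene, at 46.2 CPM in C_MR_3438 and at most 4.88 CPM in the other casein MR libraries. Without that library Des did not pass (0.19, adjusted p = 0.668), 1 stellate marker and 2 cholangiocyte markers fell, and the counts of the other cell types named here were the same. Every list had reads, and no marker in the table was at 0 in all libraries. Hepatocyte markers fell for 2 of 10 genes with elemental MR and 9 of 10 with casein MR, and Alb fell by 0.35 and fell by 0.71 (adjusted p = 0.000141 and 7.22e-10). The part of these cell types in the rise seen among the 35 genes was not tested.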

How the data were processed

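RNA of mouse liver was sequenced in 24 libraries, 6 in each of 4 diet groups, and groups were taken from the labels. The authors deposited raw counts per Ensembl gene, per the file headers, for 15161 genes, none with fewer than 72 reads in all. They also deposited normalized counts, a signal equal to the counts divided by 1 size factor per library (0.745 to 1.32), which served here for gene symbols only. The aligner, counter, strand setting, annotation and genome build used for the counts were not given in any source used here. Of the 15161 genes, 13002 had a deposited symbol and 2119 were named from RefSeq.

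Counts were tested with edgeR 4.0.16 in R 4.3.3 on all 24 libraries together (TMM scaling, filterByExpr, quasi-likelihood F test, Benjamini-Hochberg adjustment over 13441 genes, threshold 0.05). The filter kept 99.925% of reads. The 6 comparisons were MR against control within each protein, their difference, their average, and casein against elemental within each diet. CPM values are TMM-scaled, and log2 CPM had a prior count of 2. The code was tested on simulated counts. Single library measures used two-sided exact permutation tests. No 2 of the 60 pairs of libraries within groups were identical. Precision is set by totals of 13.5 to 20.8 M reads and by a biological coefficient of variation of 0.159.

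The genes, lists and comparisons were chosen with earlier results of these data known. Values per group were given for genes called in any comparison and for Irf1, Irf9 and Stat2, and ranges for the others. Another gene of that rule is not reported here. Alternatives were DESeq2 1.42.0 (test and size factors), upper quartile scaling, limma-voom 3.58.1 with quality weights, 1 surrogate variable (sva 3.50.0), other filters, other fits and leaving out each library. Motifs were searched in RefSeq promoter windows of GRCm38.p6, and overlaps of gene spans were read from GENCODE M21.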

Additional observations from a re-analysis of the deposited data

Results flagged for a closer look

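In each group of 6 libraries the highest and the lowest library of a gene were compared with the nearest other library, as a share of the group's range (Dixon's ratio, against its 95% critical value). Of 140 gene and group pairs, 12 held a library that stood apart, where chance gives about 5%, or 1 in 20, for normal values and independent pairs. CPM was used here without logs, and the genes share the same libraries. So 12 of 140 cannot be weighed against that rate. C_MR_3438, the library with muscle transcripts, was such a library for Ifit3 (39.91 CPM, the next 22.72) and for Isg15 (99.61 CPM, the next 65.29). E_MR_3420 was such a library for Igtp (66.84 CPM, the next 48.16) and for Tap1 (33.67 CPM, the next 22.75). C_C_3407 was high for Ifi44 (21.51 CPM, the next 14.04) and low for Ifit2 (1.368 CPM, the next 1.781).

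The other 6 cases fell in 6 libraries. E_C_3417 was high for Gbp6 (0.6613 CPM, the next 0.1814), a gene of few reads. E_C_3428 was low for Usp18 (4.883 CPM, the next 7.272). E_MR_3416 was high for Oasl2 (8.168 CPM, the next 6.148), and E_MR_3403 for Dhx58 (9.037 CPM, the next 6.722). E_MR_3423 was low for Ddx58 (19.96 CPM, the next 24.95), and C_C_3421 for Rtp4 (28.06 CPM, the next 35.88). Of the calls these libraries touch, Ifit3 with casein MR lost its call without C_MR_3438 and Oasl2 with elemental MR without E_MR_3416.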

How the results depend on the processing

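No paired analysis was possible because the groups share no replicate number. A fit on only the groups compared could not be made for the difference or the average, which need all 4 groups. Of genes called, 11 of 12 (elemental MR), 20 of 20 (casein MR), 22 of 22 (averaged) and 9 of 9 (between MR diets) kept their call under each other tool, scaling, filter or covariate at the same threshold that tested them (the stricter filter and the fit on only the groups compared left out Gbp6); 9, 14, 20 and 7 kept it in every fit that left out 1 library. The exception in the former was Oasl2 with elemental MR. At an adjusted p under 0.01, 5 of the 35 genes were called with elemental MR and 13 with casein MR, beside 974 genes in all with elemental MR, 2092 with casein MR, 153 for the difference, 3 between controls and 450 between MR diets.

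Between the control diets, the 14 genes called in all became 73 with DESeq2, 3 with limma-voom and 7 with only those groups in the fit, and 5 to 33 when 1 library was left out, 33 without C_C_3407. Of the 35 genes, DESeq2 called 1 there (Ifi27), and leaving out 1 library gave 0 to 1. The median difference between the MR effects of the type I responsive genes ran from -0.25 (without C_MR_3438) to 0.11 when 1 library was left out. With 1 library left out, 10 to 13 of the 35 genes were called with elemental MR and 15 to 23 with casein MR, 15 without C_C_3421 or C_MR_3438 and 23 without C_C_3407. Irf1 gained a call with casein MR in limma-voom and without C_C_3407 or C_C_3436. Irf1 turned sign with elemental MR without E_MR_3423 (-0.016, range -0.016 to 0.082). Adding Iigp1 and Ifi47 to the GTPases gave medians of 0.38 with elemental MR and 0.72 with casein MR; Tgtp1 was not tested. A longer response element, its core followed by C or G, matched 2.23% of all genes and the same 63.0% of members with a window. Depth limits Gbp6 and Tgtp1 most. The cause of these changes was not tested.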

Other observations

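Genes of antigen presentation by MHC class I, many of them interferon targets elsewhere, did not move as 1 group. Of 20 tested, 2 rose and 3 fell with elemental MR, and 5 rose and 5 fell with casein MR (4 and 5 without C_MR_3438), where 6.78% and 6.64%, and 10.6% and 12.7%, of all genes did. Psme1, a subunit of the proteasome activator, lay at 86.1 to 112 CPM (median 95.02) in casein controls and at 125 to 149 (median 136) in casein MR, with no overlap (log2 fold change 0.52 ± 0.060, adjusted p = 2.32e-07 in edgeR's quasi-likelihood test with Benjamini-Hochberg adjustment). Its elemental value was 0.16 ± 0.060 (adjusted p = 0.0821). Every casein MR library lay above every casein control for 4.82% of all genes tested. Calr and Pdia3, chaperones that load peptides onto class I molecules and fold other proteins too, were lower with both proteins. Calr fell by 0.37 ± 0.088 with elemental MR and fell by 0.52 ± 0.088 with casein MR on the log2 scale (adjusted p = 0.00508 and 5.64e-05). Pdia3 fell by 0.43 ± 0.093 and fell by 0.39 ± 0.093 (adjusted p = 0.00198 and 0.00255). H2-Q7, a class I gene with near-identical copies and so uncertain, fell by 0.48 and fell by 0.55 (adjusted p = 0.00587 and 0.000722).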
